A study of Caenorhabditis elegans with 32 samples.

Results

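The 9 genes described here encode tubulins of C. elegans: the alpha-tubulins tba-1, tba-2, tba-4 and mec-12, the beta-tubulins tbb-1, tbb-2, tbb-4 and mec-7, and the gamma-tubulin tbg-1. They were chosen by WormBase symbol, by a rule that names genes and no values but was set with earlier results of these data known, and are 9 of the 46748 genes in the count table. All 9 were found, and all 9 passed the filter on low counts in every comparison. The samples were 16 libraries of young adult worms of the strain WBM1339, which carries FLAG-tagged ribosomal subunits. Worms were hatched from bleached eggs of OP50-fed mothers and placed at the L1 stage on bacteria for control RNAi or dimt-1 RNAi, dimt-1 being the gene of an 18S rRNA methyltransferase. From each of 4 replicates per RNAi, RNA bound to the tagged muscle ribosomes was recovered with an anti-FLAG antibody (translating ribosome affinity purification, TRAP), and total RNA was taken from the lysate of whole worms. The 4 groups were therefore TRAP on control RNAi, TRAP on dimt-1 RNAi, total RNA on control RNAi and total RNA on dimt-1 RNAi, with 4 libraries each. The promoter that drives the tagged subunit in WBM1339 is not given in the sources used here. The germline libraries of the study were not analysed here.

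Microtubules are hollow polymers of alpha- and beta-tubulin dimers, and gamma-tubulin sits in the ring complexes from which they grow. C. elegans uses a small set of broadly expressed isotypes (TBA-1, TBA-2, TBB-1 and TBB-2), which also build the spindles of the germline and embryo. MEC-12 and MEC-7 are an alpha- and a beta-tubulin that build the large-diameter microtubules of the touch receptor neurons, and TBB-4 is a beta-tubulin of ciliated sensory neurons. Muscle cells are fully formed in the young adult and no longer divide.

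The isotypes differ most at the coding 3' end, which encodes the acidic tail that projects from the microtubule and carries polyglutamylation. The tails of 7 members are shown because they are where these otherwise similar genes differ. Each is the last 48 bases of the coding sequence, stop codon included, from the WBcel235 genome, with GAA and GAG codons, which encode glutamate, in capitals.
tba-4, chrII:10920115-10920162, plus strand: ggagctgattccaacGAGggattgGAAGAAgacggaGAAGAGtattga
mec-12, chrIII:3131733-3131780, minus strand: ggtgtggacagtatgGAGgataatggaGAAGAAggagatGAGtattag
tbb-1, chrIII:10740981-10741028, minus strand: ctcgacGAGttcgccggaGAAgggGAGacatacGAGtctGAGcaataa
tbb-2, chrIII:4016066-4016113, minus strand: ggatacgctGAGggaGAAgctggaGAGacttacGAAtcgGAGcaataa
tbb-4, chrX:9434679-9434726, minus strand: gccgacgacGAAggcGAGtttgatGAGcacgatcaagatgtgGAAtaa
mec-7, chrX:7774971-7775018, minus strand: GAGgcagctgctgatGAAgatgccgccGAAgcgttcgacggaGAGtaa
tbg-1, chrIII:9626677-9626724, minus strand: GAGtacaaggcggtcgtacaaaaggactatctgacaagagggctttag

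The alpha and beta tails held 4 to 6 GAA or GAG codons among their last 16, and that of tbg-1, whose product is not part of the tubulin dimer lattice, held 1. MEC-12 is also known for a lysine that is acetylated inside the microtubule, at the position of codon 40. Codons 36 to 45 are shown for mec-12 and for tba-4, with codon 40 in capitals.
mec-12, chrIII:3137618-3137647, minus strand: atgccttctgacAAGtccctcggaggatcc
tba-4, chrII:10918823-10918852, plus strand: atgccttctgagCAAcaaaatgagggtgga

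By the WBcel235 annotation, tba-1 and tba-2 lie on chromosome I (9785781 to 9787624 and 12964674 to 12966795, both minus strand), tba-4 on chromosome II (10918706 to 10920211, plus strand), mec-12, tbb-2, tbg-1 and tbb-1 on chromosome III (3131574 to 3139234, 4015910 to 4017627, 9626536 to 9629154 and 10740868 to 10742432, all minus strand), and mec-7 and tbb-4 on the X chromosome (7774856 to 7776689 and 9434452 to 9436893, both minus strand). Coding sequences were similar within a family. Identity was 86.5% between tba-1 and tba-2, 85.4% between tba-2 and tba-4 and 85.0% between tbb-1 and tbb-2, and it was 75.9 to 77.8% between mec-12 and the other alpha genes. Reads could still be told apart: for 8 of the 9 members, 0 windows of 100 bases of the transcript occurred in the transcript of any other gene. The exception was tba-4, of which 12.3% of the windows of 100 bases also occur in Y19D2B.1, a short neighbouring gene, so its counts are less certain. Overlap of exons with other genes was 76 bases for mec-12, with a gene of the opposite strand, and 21 bases for tbb-2, with a piRNA gene of its own strand, and whether counting used strand is not stated.

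Total counts were 34794250 to 49782576 per library. Low counts (1 to 20) were even numbers in 78.1 to 90.0% of cases, depending on the library, so the number of independent fragments can be lower than the count. The muscle label of TRAP held: 10 of 10 body wall muscle markers, such as the myosin gene unc-54, were called higher in TRAP than in total RNA on both RNAi (9 of 10 under the library total), and their summed level was 84019.7 to 106574 CPM (counts scaled to a common library size, here with TMM factors) in TRAP on control RNAi against 3453 to 3931 CPM in total RNA. The targeted gene is listed as E02H1.1. In total RNA it was at 22.8 to 25.8 CPM on control RNAi and at 16.6, 19.7, 24.2 and 15.1 CPM in dimt-1 replicates 1 to 4, so the library labelled dimt-1 replicate 3 lay within the control range. The log2 fold change was -0.33 (edgeR, adjusted p = 0.228) with all 8 libraries and -0.45 (adjusted p = 0.00735) without that library. Since that library was singled out by this gene's own level, the second result is no test of the knockdown. In TRAP it was at 10.8 to 23.3 CPM on control RNAi and 16.02 to 33.9 CPM on dimt-1 RNAi, and the log2 fold change was 0.48 (adjusted p = 0.794), so the labels are not checked by the targeted gene there. Whether the worms of that library had no knockdown or the library carries another sample's label cannot be told apart. The main tubulin results that rest on the libraries labelled dimt-1 replicate 3 are therefore given with and without them.

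Levels of the members spanned a wide range, with the same genes at the top in all 4 groups. Levels are compared between genes as CPM per kilobase of exon. In total RNA on control RNAi, the most abundant was tba-2 at 576 ± 32.4 CPM per kilobase (SD, n = 4), followed by tbb-2 at 563.9 ± 37.3. Their ranges overlapped, so this order lies within the spread between libraries. Next were tba-1 at 362 ± 24.0 and tbb-1 at 326 ± 17.4 CPM per kilobase, whose ranges also overlapped. A step down were the gamma-tubulin tbg-1, at 38.4 ± 3.12, and tba-4, at 33.8 ± 3.40 CPM per kilobase, again with overlapping ranges.

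The neuronal isotypes were lowest. In total RNA on control RNAi, mec-12 was at 6.08 ± 0.907, mec-7 at 3.38 ± 0.518 and tbb-4 at 1.099 ± 0.261 CPM per kilobase, with no overlap among the 3. In TRAP on control RNAi, they were at 6.72 ± 1.40, 3.36 ± 1.32 and 1.57 ± 1.16 CPM per kilobase. There tbb-4, the cilium isotype, was counted 60, 84, 78 and 0 times in replicates 1 to 4. The lowest of the other 3 was at 2.24 CPM. Counting error alone would allow the 0 a level of up to 0.0970 CPM (3 counts in that library), if each count were an independent fragment. That library had 310 genes with 1 to 20 counts, against 2846 in total RNA control replicate 4. The true limit can therefore be higher, and the 0 is not read as a lower level. On dimt-1 RNAi the TRAP counts of tbb-4 were 12, 60, 0 and 44.

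**Figure D1:**
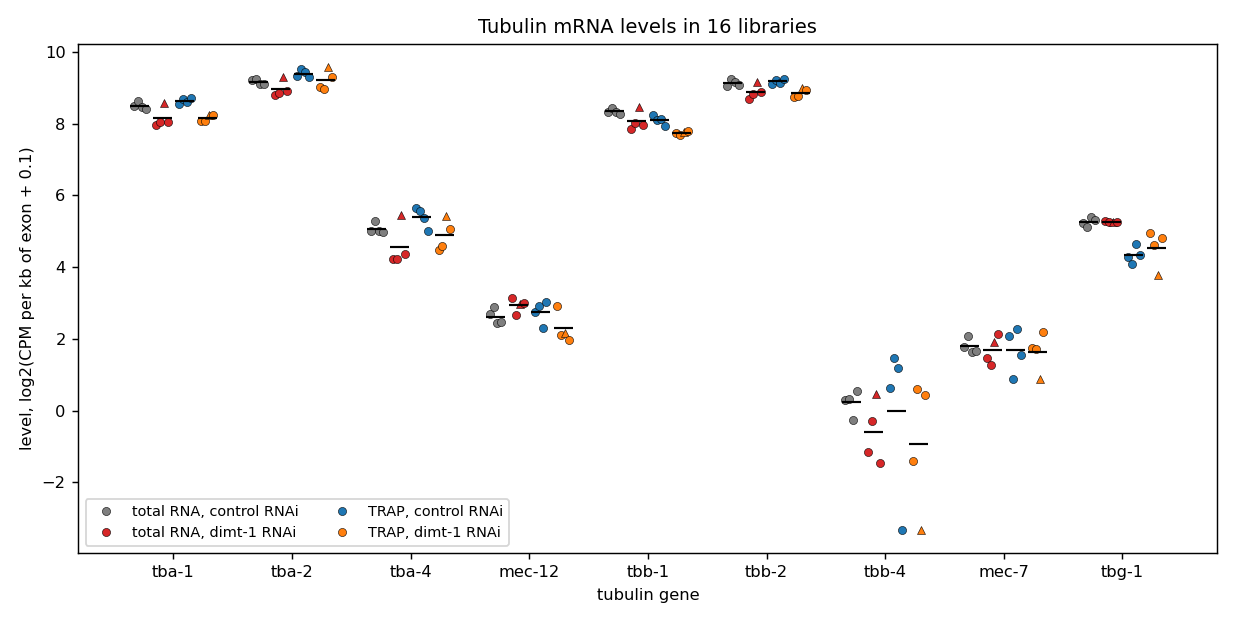
Level of each tubulin gene in each of the 16 libraries, as log2(CPM per kilobase of exon + 0.1) on the vertical axis, by group (colour); bars are group means of the log2 values and triangles are the libraries labelled dimt-1 replicate 3. The 4 broadly expressed isotypes sit at the top in every group, and the points near the bottom for tbb-4 are the TRAP libraries with 0 counts.

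The first comparison asked which tubulin mRNAs were on muscle ribosomes, relative to the RNA of the whole worm. The scale of this comparison was itself uncertain. The 9 genes took 0.139 to 0.206% of all counts in TRAP and 0.389 to 0.498% in total RNA, which holds whatever the scaling. The TMM scaling, which assumes that most genes do not differ, set them near equal, and scaling by the library total alone put the median of all genes at -1.68 (log2) on control RNAi in place of -0.26. Fold changes are therefore given on the TMM scale, with the median of all genes for each comparison, and the direction under the library total is named where it flips. In bulk samples, fewer cells of a type and less RNA per cell cannot be told apart.

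On control RNAi, 17.6% of the 13778 genes tested were called higher in TRAP and 21.9% lower (edgeR quasi-likelihood test, Benjamini-Hochberg adjusted p under 0.05), and of the 9 tubulins 1 was called higher and 2 lower, so these counts do not stand out from the background. The median log2 fold change of the 9 was 0.14, beside -0.26 for all genes. The clearest difference was that of tbg-1. It was at 28.5, 25.1, 36.8 and 29.8 CPM in TRAP and at 55.4, 51.2, 62.0 and 58.3 CPM in total RNA. The groups did not overlap, and tbg-1 was lower in TRAP by a log2 of -0.92 (SE 0.14, adjusted p = 0.000466), and by -2.34 under the library total. It kept its call under every alternative run for this comparison.

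The broadly expressed isotypes moved much less. Levels of tba-2 were 1076, 1236, 1168 and 1055 CPM in TRAP and 992, 1029, 918 and 923 CPM in total RNA, without overlap. It was higher on the TMM scale by a log2 of 0.23 (SE 0.08, adjusted p = 0.0355) and lower, by -1.21, under the library total. The medians of all genes on these scales were -0.26 and -1.68, so tba-2 lay above the median on both. The call was also lost without any of the 4 total RNA libraries in turn (adjusted p = 0.0546 to 0.128). The beta-tubulin tbb-1 was at 444, 403, 411 and 358 CPM in TRAP and 473, 515, 472 and 455 CPM in total RNA, with every TRAP library below every total RNA library. It was lower by a log2 of -0.25 (SE 0.08, adjusted p = 0.0297), a call lost in 6 of the 8 fits that left out a library and with DESeq2 (adjusted p = 0.232). This value was near the median of all genes, as it was under the library total (-1.68, with the median at -1.68).

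No other tubulin passed the test on control RNAi. The log2 fold changes were 0.15 for tba-1 (adjusted p = 0.147), 0.33 for tba-4 (0.109), 0.14 for mec-12 (0.773) and 0.04 for tbb-2 (0.745) by edgeR, and all 4 turned negative, at -1.12 to -1.39, under the library total. DESeq2 called tba-1 (adjusted p = 0.00161) and tba-4 (adjusted p = 0.0362) higher, and edgeR called tba-4 without TRAP replicate 4 (0.48, adjusted p = 0.0119). The log2 fold changes of mec-7 and tbb-4 were -0.01 (SE 0.48, adjusted p = 0.992) and 0.51 (SE 1.25, adjusted p = 0.832). Both changed sign under other settings, tbb-4 to -0.95 under the library total. The mRNA of the touch neuron beta-tubulin mec-7 was counted 172, 55, 169 and 138 times in the TRAP libraries. Of the 6 touch receptor neuron markers, mec-3 and mec-4 were at 0 in all 4 TRAP libraries on control RNAi and mec-2 was called higher in TRAP, and the 6 summed to 12.4 to 23.8 CPM in TRAP and 7.498 to 8.14 CPM in total RNA. Of the 8 ciliated neuron markers, osm-6, che-2, bbs-1 and xbx-1 were at 0 in all 4 TRAP libraries on control RNAi. Of the 6 tested, 3 had positive and 3 negative fold changes, and the 8 summed to 0.199 to 12.4 CPM in TRAP and 8.35 to 10.8 CPM in total RNA. On dimt-1 RNAi 0 markers of either list were at 0 in all 4 TRAP libraries, where the touch receptor neuron markers summed to 17.5 to 20.3 CPM and the ciliated neuron markers to 7.32 to 9.22 CPM. However, genes with 1 to 20 counts numbered 205 to 535 in the TRAP libraries on control RNAi. They numbered 3591, 3674, 204 and 3248 in dimt-1 replicates 1 to 4, so markers at 0 cannot be compared between the RNAi groups. The part of neuronal RNA in the levels of mec-7, mec-12 and tbb-4 was not tested.

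On dimt-1 RNAi, of 14785 genes tested, 17.2% were called higher in TRAP and 10.9% lower, and of the tubulins 0 and 1. The median log2 fold change of all genes was -0.14 and that of the 9 tubulins was -0.03. Again tbg-1 was lower, at 45.5, 35.8, 20.1 and 41.8 CPM in TRAP and 57.0, 56.4, 56.2 and 56.0 CPM in total RNA. The groups did not overlap, and the lowest TRAP value was that of the library labelled replicate 3. The log2 fold change was -0.65 (SE 0.21, adjusted p = 0.0356 by edgeR) and -2.07 under the library total, and the call was lost in 6 of the 8 fits that left out a library. The replicate numbers paired the samples here, and with the replicate as a block the fold change was -0.71 (adjusted p = 0.0181). Without replicate 3 of both fractions, tbg-1 was still called lower (-0.46, adjusted p = 0.0111 by edgeR).

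The TRAP values of tbb-1 on dimt-1 RNAi were 313, 301, 320 and 328 CPM, all below the total RNA values of 341, 379, 517 and 367 CPM. With a log2 fold change of -0.34 (adjusted p = 0.0935 by edgeR) it missed the threshold, which it passed with DESeq2 (adjusted p = 0.0142). Without replicate 3 of both fractions its fold change was -0.21 (adjusted p = 0.213 by edgeR). The touch neuron alpha-tubulin mec-12 was at 12.1, 6.82, 7.01 and 6.18 CPM in TRAP and at 14.0, 10.02, 12.4 and 12.8 CPM in total RNA. The groups overlapped through TRAP replicate 1, and its log2 fold change of -0.61 did not pass (adjusted p = 0.136), whereas without that library it was called lower (-0.91, adjusted p = 0.0321 by edgeR). The log2 fold changes of the other 6 were 0.27 for tba-2 and tba-4, -0.01 for tba-1, -0.03 for tbb-2 and mec-7 and 0.16 for tbb-4, with 0 called. Those of tba-2, tba-4 and tbb-4 were -1.15, -1.14 and -1.27 under the library total. Without replicate 3 of both fractions, tba-4 was called higher (0.46, adjusted p = 0.0441).

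**Figure D2:**
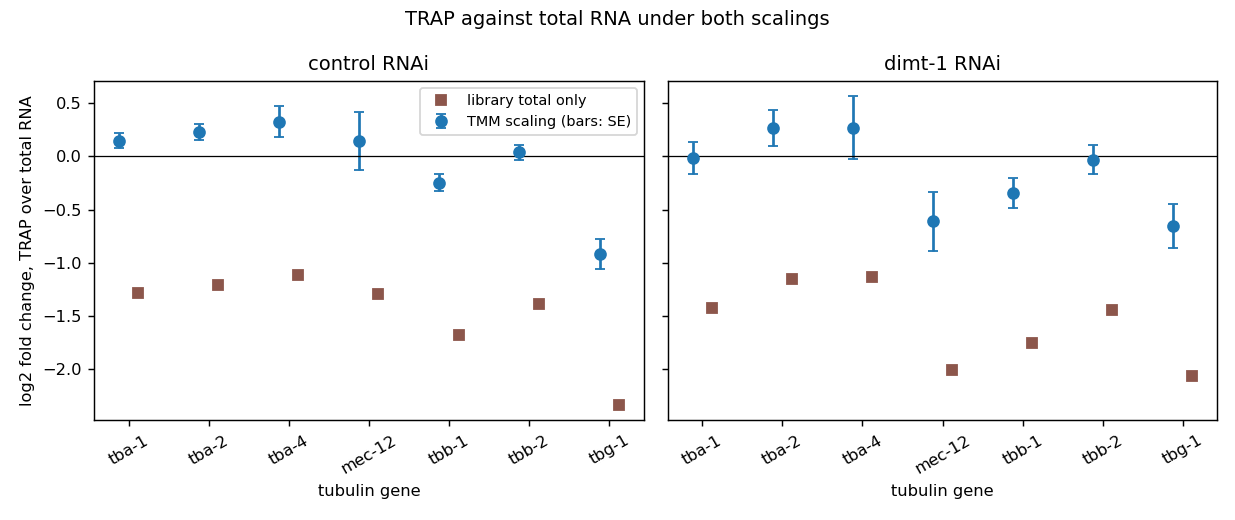
Log2 fold change of TRAP over total RNA (vertical axis) for 7 tubulins, on control RNAi (left) and dimt-1 RNAi (right), with mec-7 and tbb-4 not drawn. Circles with SE bars are on the TMM scale and squares are scaled by the library total alone. The gamma-tubulin tbg-1 is the lowest circle on both sides, and every square lies below 0.

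Ratios within a library do not depend on the scaling between libraries. They were chosen after the values were seen and are given without a test. As counts per kilobase, tbg-1 was 0.813 to 1.26% of the summed alpha and beta isotypes in TRAP on control RNAi and 1.71 to 2.29% in total RNA, without overlap. On dimt-1 RNAi the TRAP values were 2.09, 1.67, 0.737 and 1.67%, and those in total RNA were 2.83, 2.60, 1.90 and 2.52%, so that the groups overlapped, while in each same-numbered pair the TRAP value was the lower. On control RNAi the ratio of tba-4 to tbg-1 was 1.58 to 2.78 in TRAP and 0.864, 1.12, 0.770 and 0.797 in total RNA, so tba-4 was above tbg-1 in all 4 TRAP libraries and in total RNA replicate 2. On dimt-1 RNAi the ratio was 0.727, 0.997, 3.13 and 1.17 in TRAP and 0.484, 0.492, 1.15 and 0.543 in total RNA, with the library labelled replicate 3 the highest of its group in both.

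The ratio of alpha to beta mRNA was likewise chosen after the values were seen and was not tested. Summed over the 4 alpha and the 4 beta isotypes per kilobase, the ratio of alpha to beta was 1.24, 1.37, 1.34 and 1.28 in TRAP on control RNAi and 1.15, 1.09, 1.05 and 1.09 in total RNA. On dimt-1 RNAi it was 1.27, 1.23, 1.54 and 1.34 in TRAP and 1.11, 1.04, 1.14 and 1.08 in total RNA. All 8 TRAP libraries lay above all 8 total RNA libraries. How often ratios of other genes separate in this way was not counted.

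The share of each isotype within its family asked whether muscle ribosomes carry a different mix of isotypes. Within the beta family, tbb-2 took 64.4, 68.3, 66.3 and 71.0% in TRAP on control RNAi and 62.0, 63.3, 63.8 and 63.1% in total RNA. The share of tbb-2 was thus higher in each TRAP library than in any total RNA library, by 4.46 percentage points on average. On dimt-1 RNAi it was higher by 4.63 points, at 66.7 to 69.9% in TRAP and 61.9 to 65.0% in total RNA, again without overlap. The shares of tbb-1 were lower by 4.53 points and by 4.68 points, also without overlap, since tbb-1 and tbb-2 make up nearly all beta mRNA.

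In each of these 4 contrasts the exact two-sided permutation test gave p = 0.0286, the smallest that 4 against 4 libraries allow, and 0.0762 after adjustment over the 16 tests of this family, so that 0 of 16 shares passed. With that smallest p a share can pass only if most of the 16 reach it, so this count says little about whether the mix differs. Within the alpha family on dimt-1 RNAi, tba-2 took 62.6 to 68.6% in TRAP and 59.2 to 62.3% in total RNA, and tba-1 took 27.2 to 33.9% and 34.1 to 35.98%, without overlap for either (exact permutation test, p = 0.0286, adjusted p = 0.0762). On control RNAi the alpha shares overlapped, with tba-2 at 59.95 ± 1.67% (SD, n = 4) in TRAP and 58.9 ± 0.838% in total RNA (exact permutation test, p = 0.371, adjusted p = 0.594). The minor isotypes overlapped between the fractions on both RNAi.

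**Figure D3:**
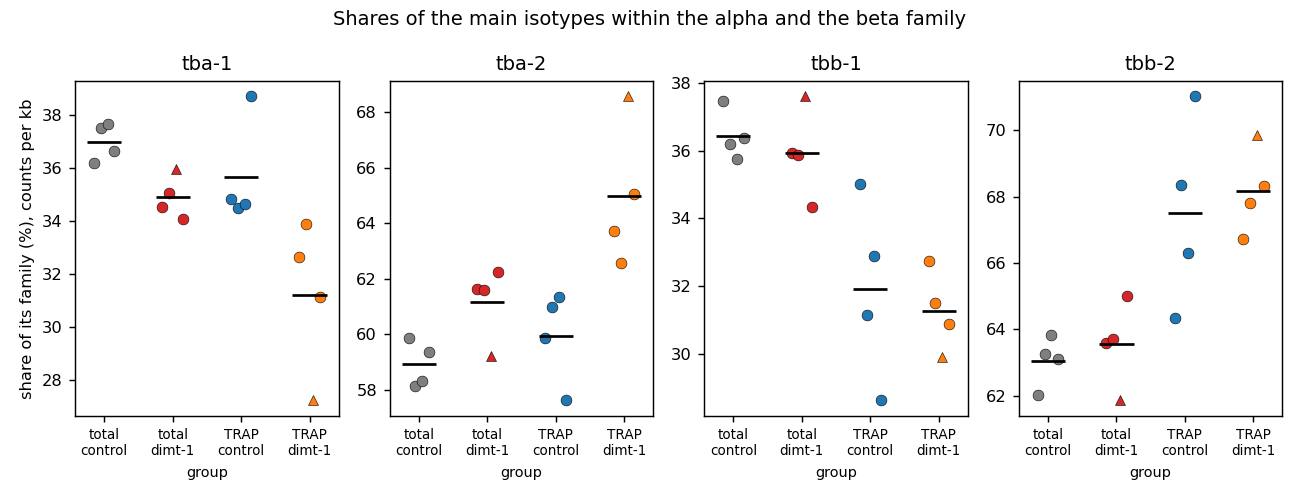
Share of tba-1 and tba-2 in the alpha family and of tbb-1 and tbb-2 in the beta family (vertical axis, percent of counts per kilobase, each panel with its own range) in each library by group; bars are group means and triangles are the libraries labelled dimt-1 replicate 3. For tbb-2, each TRAP library lies above each total RNA library of the same RNAi, and for tbb-1 each lies below.

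The second comparison asked what dimt-1 RNAi did to tubulin mRNA in the whole worm. Across all 8 total RNA libraries 0 of 15441 genes were called by edgeR (0% higher and 0% lower), 2504 had an unadjusted p under 0.05, and DESeq2 called 659. The median log2 fold change of all genes was 0.01 and that of the 9 tubulins was -0.19. The broad isotypes were lower in 3 of the 4 dimt-1 libraries, and in the library labelled dimt-1 replicate 3 they were at or near the control level. The alpha-tubulin tba-1 was at 543, 601, 536 and 515 CPM on control RNAi and at 377, 398, 581 and 404 CPM on dimt-1 RNAi. Levels of tba-4, a less abundant alpha isotype, were 45.6, 54.7, 45.6 and 44.4 CPM on control RNAi and 26.3, 26.5, 61.4 and 29.0 CPM on dimt-1 RNAi. In both genes only replicate 3 reached the control range, and with all 8 libraries the log2 fold changes were -0.28 for tba-1 (adjusted p = 0.243 by edgeR) and -0.38 for tba-4 (0.423).

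The same held for the other main isotypes. On dimt-1 RNAi, tba-2 was at 742, 772, 1057 and 815 CPM, with 918 to 1029 CPM on control RNAi. Levels of tbb-1 were 341, 379, 517 and 367 CPM on dimt-1 RNAi, with 455 to 515 CPM on control RNAi. Those of tbb-2 were 622, 694, 875 and 715 CPM, with 806 to 928 CPM on control RNAi. Each of the 3 genes had replicates 1, 2 and 4 below all control libraries. The share of all genes with this pattern was not counted, so it is no result about tubulins as a set.

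When the library labelled dimt-1 replicate 3 was left out, 6.99% of 15845 genes were called higher and 8.03% lower, and 5 of the 9 tubulins were called lower by edgeR. That library was the highest of its group for each of these 5, so leaving it out was bound to lower their fold changes. Leaving out any other single library called 0 genes. The calls without replicate 3 are therefore a description of the libraries kept and no test of dimt-1 RNAi. In the libraries kept, tba-4 was at 59.5% of control (log2 -0.75, SE 0.09, adjusted p = 3.56e-05) and tba-1 at 74.2% (-0.43, SE 0.06, adjusted p = 0.000240). There tbb-1 was at 78.5% (-0.35, SE 0.06, adjusted p = 0.00090), tbb-2 at 82.2% (-0.28, SE 0.07, adjusted p = 0.00870) and tba-2 at 83.4% (-0.26, SE 0.06, adjusted p = 0.0109). The 5 calls held under DESeq2's size factors and under the library total, which used the same 7 libraries and are no independent support. With all 8 libraries, limma voom with quality weights, which gives less weight to libraries that deviate, called 4 of these 5 lower and not tba-2. The other 4 tubulins were not called: tbg-1 was at 103% of control (adjusted p = 0.758) and mec-12 at 130% (adjusted p = 0.133), mec-7 was at 95.2% (adjusted p = 0.891) and tbb-4, with 28 to 136 counts in the 7 libraries, at 41.8% (adjusted p = 0.0711).

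Markers of some other tissues also differed in this fit, and others did not. Without replicate 3, the summed sperm markers were at 24.3 to 52.3 CPM on dimt-1 RNAi against 11.7 to 15.4 CPM on control RNAi, with 4 of the 7 tested called higher. The 8 intestine markers were at 8719 to 10920.5 CPM against 12867.7 to 15019 CPM, with 5 called lower and 1 higher. The 12 germline markers were at 4526 to 5077 CPM against 4938 to 5127 CPM, with 1 called in each direction and a median log2 fold change of 0.02. Of the body wall muscle markers 2 were called higher and 0 lower, and of the epidermis markers 1 higher and 0 lower. In the lists for neurons, touch receptor neurons and ciliated neurons 0 were called. Replicate 3 was at 10.8 CPM for sperm and 14284 CPM for intestine, near the control libraries. The part of these tissues in the tubulin result was not tested.

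**Figure D4:**
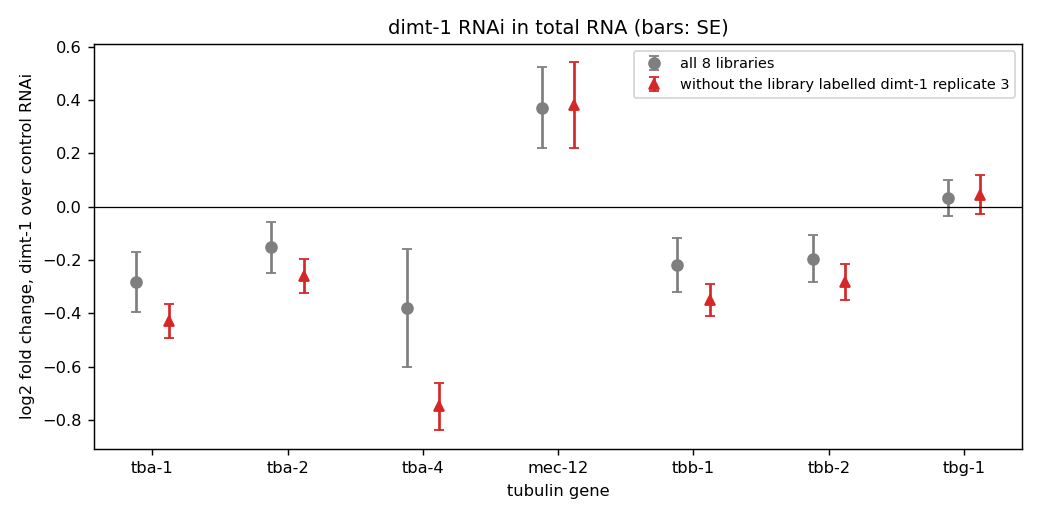
Log2 fold change of dimt-1 over control RNAi in total RNA (vertical axis, bars are SE) for 7 tubulins, with mec-7 and tbb-4 not drawn. Circles are fits with all 8 libraries and triangles are fits without the library labelled dimt-1 replicate 3. The 5 isotypes tba-1, tba-2, tba-4, tbb-1 and tbb-2 lie further below 0 without that library, and tbg-1 stays near 0 in both.

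In total RNA the mean shares differed between the RNAi groups by at most 2.24 percentage points, for tba-2, whose groups overlapped. The share of tba-1 in the alpha family was 36.2, 37.5, 37.7 and 36.6% on control RNAi and 34.6, 35.1, 35.98 and 34.1% on dimt-1 RNAi, without overlap. The share of mec-12 was 0.640, 0.688, 0.569 and 0.581% on control RNAi and 1.21, 0.830, 0.723 and 1.02% on dimt-1 RNAi, also without overlap. In total RNA the 6 touch receptor neuron markers summed to 10.97 to 11.7 CPM on dimt-1 RNAi without replicate 3 (5.52 CPM in it) and to 7.498 to 8.14 CPM on control RNAi, with 6 of 6 fold changes positive, a median of 0.55 without replicate 3 and 0 called, and their part in the mec-12 share was not tested. The shares of tba-1 and mec-12 each reached the smallest p of the exact permutation test (0.0286). After adjustment over 16 tests it was 0.114, and the threshold can be passed only if most of the 16 reach that smallest p. The mec-12 level itself was 10.2, 11.7, 8.62 and 8.69 CPM on control RNAi and 14.0, 10.02, 12.4 and 12.8 CPM on dimt-1 RNAi, and its log2 fold change of 0.37 did not pass (adjusted p = 0.261 by edgeR). The beta shares overlapped.

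On muscle ribosomes, dimt-1 RNAi went with lower values of several isotypes, none of which passed the main test. Of 12164 genes 0 were called (0% higher and 0% lower) by edgeR, with 976 at an unadjusted p under 0.05 and 164 called by DESeq2. The median log2 fold change of all genes was 0.05 and that of the 9 tubulins was -0.37. For tba-1, TRAP levels were 567, 633, 597 and 642 CPM on control RNAi and 408, 412, 462 and 457 CPM on dimt-1 RNAi. For tbb-1 they were 444, 403, 411 and 358 CPM and 313, 301, 320 and 328 CPM. For tbb-2 they were 840, 911, 854 and 914 CPM and 656, 669, 769 and 748 CPM. In these 3 genes all 4 dimt-1 libraries, the one labelled replicate 3 included, were below all 4 control libraries. The share of all genes that separated in this way was not counted, so this is no result about tubulins as a set.

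Their log2 fold changes in TRAP were -0.50 for tba-1 (SE 0.13, adjusted p = 0.276 by edgeR), -0.37 for tbb-1 (SE 0.13, adjusted p = 0.420) and -0.33 for tbb-2 (SE 0.13, adjusted p = 0.507). DESeq2 called tba-1 (-0.54, adjusted p = 0.000466) and tbb-1 (-0.41, adjusted p = 0.0228). Without the library labelled replicate 3, 0 tubulins were called by edgeR, and tba-1 had an adjusted p of 0.0955. The values of tba-2 (881, 840, 1284 and 1056 CPM on dimt-1 RNAi) and tba-4 (31.5, 34.1, 59.9 and 46.6 CPM) overlapped those on control RNAi. The log2 fold changes of the other members were -0.17 for tba-2, -0.49 for tba-4, -0.45 for mec-12, 0.23 for tbg-1, -0.11 for mec-7 (SE 0.69) and -1.11 for tbb-4 (SE 1.79), with 0 called. Within the alpha family, tba-2 took 57.6 to 61.3% on control RNAi and 62.6 to 68.6% on dimt-1 RNAi, while tba-1 took 34.5 to 38.7% and 27.2 to 33.9% (exact permutation test for each, p = 0.0286, adjusted p = 0.114 over 16 tests).

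The body wall muscle markers were also lower in TRAP on dimt-1 RNAi in 9 of 10 cases, with a median log2 fold change of -0.27 and 0 called, and their summed level was 79392 to 99423 CPM against 84019.7 to 106574 CPM on control RNAi. In the same comparison the intestine markers had a median of -0.56 and summed to 5017 to 6201 CPM on dimt-1 RNAi without replicate 3 (9067 CPM in it) against 7958 to 10687 CPM. The sperm markers had a median of 1.08 and summed to 21.3 to 42.5 CPM without replicate 3 (12.7 CPM in it) against 10.9 to 18.6 CPM, with 0 called in either list. The part of these tissues in the TRAP values was not tested. The TRAP libraries on control RNAi and the one labelled dimt-1 replicate 3 had 204 to 535 genes with 1 to 20 counts, whereas the other 3 had 3248 to 3674. The part of this difference in the fold changes of low genes such as mec-7 and tbb-4 was not tested.

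Whether dimt-1 RNAi changed the ratio of TRAP to total RNA was tested as an interaction over the 16 libraries. It called 0 of 15897 genes by edgeR (0% higher and 0% lower), with 2183 at an unadjusted p under 0.05 and 330 called by DESeq2. Of the 9 tubulins, mec-12 had the lowest value, a log2 of -0.76 (SE 0.41, adjusted p = 0.453 by edgeR), and tbg-1 the highest, 0.26 (SE 0.26, adjusted p = 0.821). The others were -0.17 for tba-1, 0.03 for tba-2, -0.07 for tba-4, -0.10 for tbb-1, -0.08 for tbb-2, -0.03 for mec-7 (SE 0.67) and -0.35 for tbb-4 (SE 1.76). The median of all genes was 0.16 and that of the 9 tubulins was -0.08. Without the libraries labelled dimt-1 replicate 3, 42 of 16313 genes were called by edgeR. There tbg-1 was at 0.46 (adjusted p = 0.251) and mec-12 at -0.69 (adjusted p = 0.482). No difference between the RNAi groups in the ribosome association of a tubulin mRNA was thus detectable at this spread.

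Genes that act on tubulin were counted by list. The folding list held the prefoldin and CCT chaperonin subunits, which fold nascent tubulin and actin, and the tubulin cofactors, which assemble the dimer. On control RNAi 9 of its 20 genes were called higher in TRAP and 3 lower, with a median log2 fold change of 0.28 beside -0.26 for all genes, of which 17.6% were called higher and 21.9% lower. The prefoldin genes pfd-2, pfd-4 and pfd-1 rose by 2.05, 2.47 and 1.94 on the TMM log2 scale (adjusted p = 7.71e-08, 1.71e-07 and 1.92e-07 by edgeR). All 6 prefoldin genes were among the calls, whereas the cofactor genes tbcd-1 and tbce-1 and the chaperonin gene cct-8 were lower, by -1.02, -1.43 and -0.81. Under the library total 3 of the 20 were called higher and 17 lower. On dimt-1 RNAi the counts were 8 higher, led by pfd-1, pfd-2 and pfd-4, and 3 lower on the TMM scale, and again 3 and 17 under the library total.

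Of the 8 nucleation genes, 4 were lower in TRAP on control RNAi, namely air-1, noca-1, spd-5 and spd-2, and mzt-1 was higher. The shares over all genes in this comparison, 17.6% higher and 21.9% lower, apply to this and the next 3 lists. The centrosome scaffold genes spd-5 and spd-2 were lower by -1.35 (adjusted p = 0.000498 by edgeR) and -1.34 (0.00190). The list's median was -0.68. Under the library total all 8 were lower, mzt-1 included. Of the 10 genes for microtubule binding and severing, 6 were called lower, with ebp-2, mei-1 and mei-2 at the smallest p, and 2 higher, namely ptl-1, the tau-like protein gene, with 1.72 (adjusted p = 0.0133), and tac-1 with 0.25 (0.0226). Under the library total 0 of these 10 were called higher and 8 lower. Among 9 tested tubulin modification genes, the deacetylase gene hda-6 and the deglutamylase gene ccpp-1 were lower, by -0.77 and -0.96, and among 4 motors the dynein heavy chain gene dhc-1 was lower by -0.54. The 12 germline markers, 11 of them called lower with a median of -0.87, moved in the same direction as the centrosome genes and tbg-1. So did the intestine markers (6 of 8 called lower, median -0.72) and the epidermis markers (2 of 4 tested called lower, median -0.62). The neuron markers had a median of -0.23, with 3 called lower and 2 higher, and the sperm markers 0.39, with 0 called. The part of these tissues in these results was not tested.

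On dimt-1 RNAi, where 17.2% of all genes were called higher and 10.9% lower, 3 of 8 nucleation genes were lower in TRAP (spd-2, spd-5 and air-1) and 1 was higher, namely ptrn-1, which encodes a microtubule minus-end protein. The binding and severing genes gave 4 lower and 2 higher (elp-1 and ptl-1). The modification list gave hda-6 and ccpp-1 lower and the glutamylase gene ttll-5 higher, and the motors gave unc-116, the kinesin heavy chain gene, and dhc-1 lower. Under the library total 0 genes of these 4 lists were called higher.

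In total RNA without the library labelled dimt-1 replicate 3, the folding list was the one with most calls. In it, 12 of 20 genes were called lower on dimt-1 RNAi and 0 higher, beside 8.03% of all genes. They included 8 CCT genes, with cct-6 lower by a log2 of -0.48 (SE 0.06, adjusted p = 3.31e-05 by edgeR), cct-4 by -0.41 (SE 0.06, 0.000188) and cct-1 by -0.45 (SE 0.07, 0.000402). The list's median was -0.26, close to the median of -0.28 of the 9 tubulins and below that of all genes, 0.02. Of the other lists, tac-1 and unc-116 were lower, by -0.24 and -0.39, and 0 of 8 nucleation and 0 of 10 modification genes were called. With all 8 libraries 0 genes of these lists were called, and 18 of the 20 folding genes had a negative fold change.

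The 7 other tubulin genes were low or undetected. The alpha gene tba-8 was at 0 in all libraries but 1, where it had 2 counts, and tba-5 was at 0 in all 4 TRAP libraries on control RNAi. The beta gene ben-1, which gives sensitivity to the anthelmintic benomyl, was at 3.29 to 10.5 CPM in TRAP on control RNAi and at 15.8 to 19.9 CPM in total RNA. It was called lower in TRAP on control RNAi (log2 -1.47, SE 0.37, adjusted p = 0.00841 by edgeR) and on dimt-1 RNAi (-0.79, SE 0.24, adjusted p = 0.0259). On dimt-1 RNAi tba-9 was called higher in TRAP by 1.63 and tbb-6 by 1.43 on the TMM scale, and 0 of these genes were called higher under the library total.

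Over the 16 libraries, the log2 CPM of tbb-2 was most like that of tba-1 among the 15897 genes tested, with a Pearson correlation of 0.965, followed by spp-4 (0.934). The genes most like tba-2 were fust-1 (0.954) and the ribosomal protein gene rps-22 (0.947). For mec-7 they were pmp-1 (0.903) and R05G6.5 (0.882), and for mec-12 they were WBGene00013638 (0.768) and cal-8 (0.753). The points share their libraries and scaling, and these values are descriptions without a test.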

How the data were processed

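The authors deposited raw counts per gene for the 16 muscle libraries (polyA RNA, TruSeq stranded mRNA kit). The submitters' processing notes name STAR 2.7.2b; the methods state mapping to WBcel235 for the germline libraries, and the annotation and strand setting are not given in the sources used here. All columns were assigned by library name, and 43693 of 46748 genes had a symbol. Genes were filtered with filterByExpr, scaled by TMM and tested with glmQLFit and glmQLFTest in edgeR 4.0.16 (R 4.3.3), with calls at a Benjamini-Hochberg adjusted p under 0.05 over all genes tested. The study names edgeR for normalization and for differential expression, with Benjamini-Hochberg adjustment and a threshold of 0.05. Each comparison here used its own 8 libraries (the interaction all 16). CPM in the text use TMM factors over all 16. Shares divide counts by exon length (Ensembl annotation of WBcel235) and were tested by exact permutation. Scripts were tested on simulated data. Alternatives were DESeq2's size factors, library totals, no filter, at least 10 counts in every library, DESeq2, limma voom with quality weights, a replicate block and leaving out each library. Leaving out replicate 3 with other scalings, or from both fractions, was added after seeing the data. Members and lists (all 9 members, the 7 other tubulins and the named lists, with called genes named up to 5 and otherwise the 3 of smallest p) were chosen with earlier results of these data known. Same-numbered TRAP and total libraries deviated together on dimt-1 RNAi (correlations 0.163 to 0.520) but not reliably on control RNAi (0.0378 to 0.170). The labels call the libraries biological replicates; p-values measure the spread between them.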

Additional observations from a re-analysis of the deposited data

Results flagged for a closer look

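Among the 36 groups of 4 tested (9 genes in 4 groups), 4 held a library far from the others of its group, and chance flags about 1 in 20 groups. In total RNA on dimt-1 RNAi the library labelled replicate 3 was apart for tba-1, at 581 CPM against 377 to 404 CPM in the other 3, and for tba-4, at 61.4 CPM against 26.3 to 29.0 CPM. It is the library in which the targeted gene E02H1.1 lay within the control range. In total RNA on control RNAi, replicate 2 was apart for tba-4, at 54.7 CPM against 44.4 to 45.6 CPM. In TRAP on dimt-1 RNAi, replicate 1 was apart for mec-12, at 12.1 CPM against 6.18 to 7.01 CPM.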

How the results depend on the processing

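Scaling by library total only put TRAP below total RNA: genes called went to 8461 on control RNAi and 8852 on dimt-1 RNAi, tubulins called lower to 8 on each, with 0 called higher, and the log2 fold changes on control RNAi reversed for tba-1 (-1.28), tba-2 (-1.21), tba-4 (-1.12), mec-12 (-1.30) and tbb-2 (-1.39), and on dimt-1 RNAi for tba-2 (-1.15) and tba-4 (-1.14). On control RNAi, tubulins called higher and lower were 3 and 1 with DESeq2's size factors, with at least 10 counts in every library and with DESeq2, and 0 were called higher with no filter; leaving out 1 library gave 0 to 2 higher and 1 to 2 lower. On dimt-1 RNAi, 2 were called lower with at least 10 counts in every library and with DESeq2, and 0 to 2 with 1 library left out. There tba-1 turned positive with voom (0.056), with the replicate block (0.0068) and without replicate 3 of both fractions (0.12), and ranged from -0.083 to 0.15 with 1 library left out; tbb-2 was 0.030 without replicate 3 of both fractions and -0.099 to 0.070 with 1 library left out, and 1 tubulin was then called higher without both. In total RNA, dimt-1 RNAi called 346 genes with no filter, 659 with DESeq2, 1601 with voom (4 tubulins lower), 1 with the replicate block, and 0 to 2379 with 1 library left out (0 to 5 tubulins lower). Without replicate 3 it called 2377 genes with DESeq2's size factors and 2301 with the library total, and 5 tubulins lower in each; tbg-1 ranged from -0.017 to 0.066 with 1 library left out. In TRAP it called 177 genes with no filter, 8 with at least 10 counts, 164 with DESeq2 (2 tubulins lower), 128 with voom, 0 to 49 with 1 library left out and 58 without replicate 3 under the library total. The interaction called 9 genes with the library total, 330 with DESeq2 and 0 to 46 with 1 lysate left out. The cause of these differences was not tested. The replicate block changed no tubulin call. Shares had 0 of 16 calls in each family when not divided by length and with all tubulin genes counted. There a share could pass only if most of the 16 reached the smallest p, so these counts are no sign of stability. With a library left out, or with same-numbered pairs, the design could not pass the threshold. Of the members, mec-7 and tbb-4 reversed most often, with 25 and 12 reversals. On control RNAi, TRAP over total RNA of mec-7 was 0.095 with DESeq2's size factors, 0.055 with at least 10 counts in every library, 0.096 with DESeq2, 0.016 with voom and -0.17 to 0.23 with 1 library left out, and tbb-4 was -0.95 with the library total and -1.22 with voom. On dimt-1 RNAi, mec-7 was 0.12 with voom, 0.23 without replicate 3 of both fractions and -0.26 to 0.15 with 1 library left out, and tbb-4 was -1.27 with the library total, -0.13 with the replicate block and -0.41 to 0.72 with 1 library left out. For dimt-1 RNAi, mec-7 in total RNA was 0.0078 with the library total and -0.21 to 0.12 with 1 library left out; in TRAP it was 0.16 without replicate 3 under the library total and -0.35 to 0.10 with 1 library left out, and tbb-4 was 0.53 with voom. In the interaction, tba-2 was -0.11 with DESeq2's size factors and with DESeq2, -0.065 with at least 10 counts in every library, -0.010 with voom and -0.027 to 0.070 with 1 lysate left out; mec-7 was 0.10 with voom, 0.025 with the replicate block and -0.35 to 0.24; tbb-4 was 1.77 with voom and -0.99 to 0.62; tba-4 was 0.023 with voom, 0.0010 with the replicate block and -0.19 to 0.13; tbb-1 was 0.0031 with voom and -0.23 to 0.041.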
